A study of Mus musculus with 18 samples.

Results

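Trem2, Tyrobp and 7 other genes that mark disease-associated microglia (Cst7, Spp1, Gpnmb, Lgals3, Cd52, Lyz2 and Ank) were followed in microglia and astrocytes of mice with and without a deletion of Tgfb1. The genes were chosen by name, and all 9 were among the 35869 gene symbols listed for every library. Cells had been isolated enzymatically from C57BL/6 mouse brain with inhibitors present, and sorted by flow cytometry. Every mouse had received tamoxifen by gavage, 5 times at 180 mg/kg, and carried Cx3cr1CreERT2, a tamoxifen-inducible recombinase under the Cx3cr1 promoter. That promoter is active in microglia and also in other macrophages, so the recombinase is not limited to the sorted microglia. Controls, whose genotype label is WT, are described as Cx3cr1CreERT2 mice, and KO mice as Cx3cr1CreERT2-Tgfb1fl/fl, which adds loxP-flanked alleles of the gene for transforming growth factor beta 1. The groups were control microglia (n = 4, mice 1, 2, 4 and 5), KO microglia (n = 4, mice 1 to 4), control astrocytes (n = 5, mice 1 to 5) and KO astrocytes (n = 4, mice 1 to 4). Ages are not given in the sources used here. Another library, whose labels contradict each other on cell type, entered no comparison.

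TREM2 is a lipid-sensing receptor of microglia and other macrophages that has no signalling tail of its own. It signals through the adaptor TYROBP, also called DAP12, which recruits the kinase SYK, and proteases can shed its outer part. Around amyloid plaques and damaged myelin, microglia lower their homeostatic genes and raise a set called the disease-associated programme, in which a first stage is thought not to need TREM2 and a second stage does. Cst7, Spp1, Gpnmb, Lgals3, Cd52, Lyz2 and Ank are genes often used to mark this state. TGF-beta signalling acts through SMAD transcription factors and keeps microglia in their homeostatic state.

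The sequences just upstream of 4 of these genes are shown because their RNA moved in opposite directions in KO microglia. Trem2 and Cst7 were lower, and Lgals3 and Lyz2 were higher. RefSeq promoter entries matched 7 of the 9 genes, all but Tyrobp and Cd52. Each sequence runs 5′ to 3′ on the strand of the gene and ends at the RefSeq transcription start or, where an annotated exon lies closer, just before that exon. Capitals mark CAGAC, the core of SMAD binding sites, and GAGGAA, the core of sites for PU.1, the lineage factor of macrophages, on either strand. These 2 motifs have different letters, and no matches overlapped.
Trem2: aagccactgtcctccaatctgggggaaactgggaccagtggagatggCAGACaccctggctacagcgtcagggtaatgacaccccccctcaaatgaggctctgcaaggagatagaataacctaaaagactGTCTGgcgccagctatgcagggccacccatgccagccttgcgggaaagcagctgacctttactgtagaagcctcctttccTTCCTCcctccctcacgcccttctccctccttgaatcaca
Cst7: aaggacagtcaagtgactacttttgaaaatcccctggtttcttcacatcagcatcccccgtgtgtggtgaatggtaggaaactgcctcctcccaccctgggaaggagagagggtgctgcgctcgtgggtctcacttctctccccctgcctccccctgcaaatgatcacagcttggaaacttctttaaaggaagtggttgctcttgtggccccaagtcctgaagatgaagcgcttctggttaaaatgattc
Lgals3: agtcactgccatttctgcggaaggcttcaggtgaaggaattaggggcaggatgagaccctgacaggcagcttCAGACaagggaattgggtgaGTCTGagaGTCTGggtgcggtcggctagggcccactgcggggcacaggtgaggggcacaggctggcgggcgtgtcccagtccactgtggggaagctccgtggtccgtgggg
Lyz2: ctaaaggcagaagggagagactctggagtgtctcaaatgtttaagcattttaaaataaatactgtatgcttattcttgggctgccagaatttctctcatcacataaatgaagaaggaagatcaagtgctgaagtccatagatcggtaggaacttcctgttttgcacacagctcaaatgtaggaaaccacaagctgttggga
In GRCm38.p6 the Trem2 sequence is chr17:48346151-48346400 on the plus strand, 250 bases, and Cst7 is chr2:150570165-150570414 on the plus strand, 250 bases. Lgals3 is chr14:47373610-47373812 on the plus strand, 203 bases, inside the longer gene model of GENCODE M21. Lyz2 is chr10:117282322-117282522 on the minus strand, 201 bases. The Trem2 sequence held CAGAC at 203 and 120 bases before the start and GAGGAA at 40 bases, counted to the first base of each match. Lgals3 held CAGAC at 178, 158 and 150 bases before its start, and the sequences of Cst7 and Lyz2 held neither motif. Of 32851 promoter windows of 250 bases 42.2% held CAGAC and 23.3% held GAGGAA. In windows of 203 bases the shares were 36.3% and 19.0%, and in windows of 201 bases 36.0% and 18.8%. CAGAC thus occurred upstream of Trem2, which was lower, and of Lgals3, which was higher. These 4 genes were picked by direction and are too few to show or exclude a separation by the letters. Of the other matched genes Spp1 held CAGAC and GAGGAA, Ank held GAGGAA and Gpnmb held neither. A match is a description, not a binding site.

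Levels are TPM, transcript abundances scaled for gene length and to a fixed sum per library, which can be compared between genes. Differences are given as KO minus control on the scale of log2(TPM + 1), which understates changes of genes near 1 TPM. Adjusted p-values come from limma across all genes tested, with 0.05 as the threshold. Between 12456 and 13127 genes reached 1 TPM in a microglial library and between 14086 and 15484 in an astrocyte library, and the files keep no read depth. Tgfb1 itself was at 3.00 ± 0.271 TPM in control and 1.70 ± 0.294 TPM in KO microglia (SD, n = 4 each), without overlap, and at no more than 0.3 TPM in any astrocyte library. Control mice 3, 4 and 5 had Y-linked Ddx3y at 46.0 to 56.3 TPM and X-inactivation RNA Xist listed at 0. The other controls (mice 1 and 2) and the 8 KO libraries had Xist, at 28.6 to 48.3 TPM, and at most 0.1 TPM of Ddx3y. Genotype comparisons thus set KO mice with Xist against controls of both kinds, with no covariate for it. Fits against control mice 1 and 2 or against the other controls, given below, follow this split. The sort labelled microglia held 43090 to 45990 TPM of 12 macrophage markers in controls and 35580 to 40850 TPM in KO mice. The sort labelled astrocytes held 22490 to 25850 TPM of 8 astrocyte markers in controls and 16320 to 29100 TPM in KO mice, with 29.5 to 705.4 TPM of the macrophage markers.

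The first question was how these genes differ between KO and control microglia. Trem2 and Cst7 fell, Lgals3, Lyz2 and Cd52 rose, and Tyrobp, Spp1, Gpnmb and Ank did not pass the test. Thus 3 of the 9 genes were higher and 2 lower, where 14.2% of the 13054 genes tested were higher and 14.2% were lower. The median difference was 0.16 over the 9 genes and 0.0040 over all genes tested. The same number of genes, 5, passed when any one library was left out and against control mice 1 and 2 alone. Against control mice 4 and 5 alone 6 passed, with Tyrobp added, and over all alternatives 4 to 6 passed. A lower level in bulk RNA can mean fewer cells of a type or less RNA per cell, which these data cannot tell apart.

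**Figure D1:**
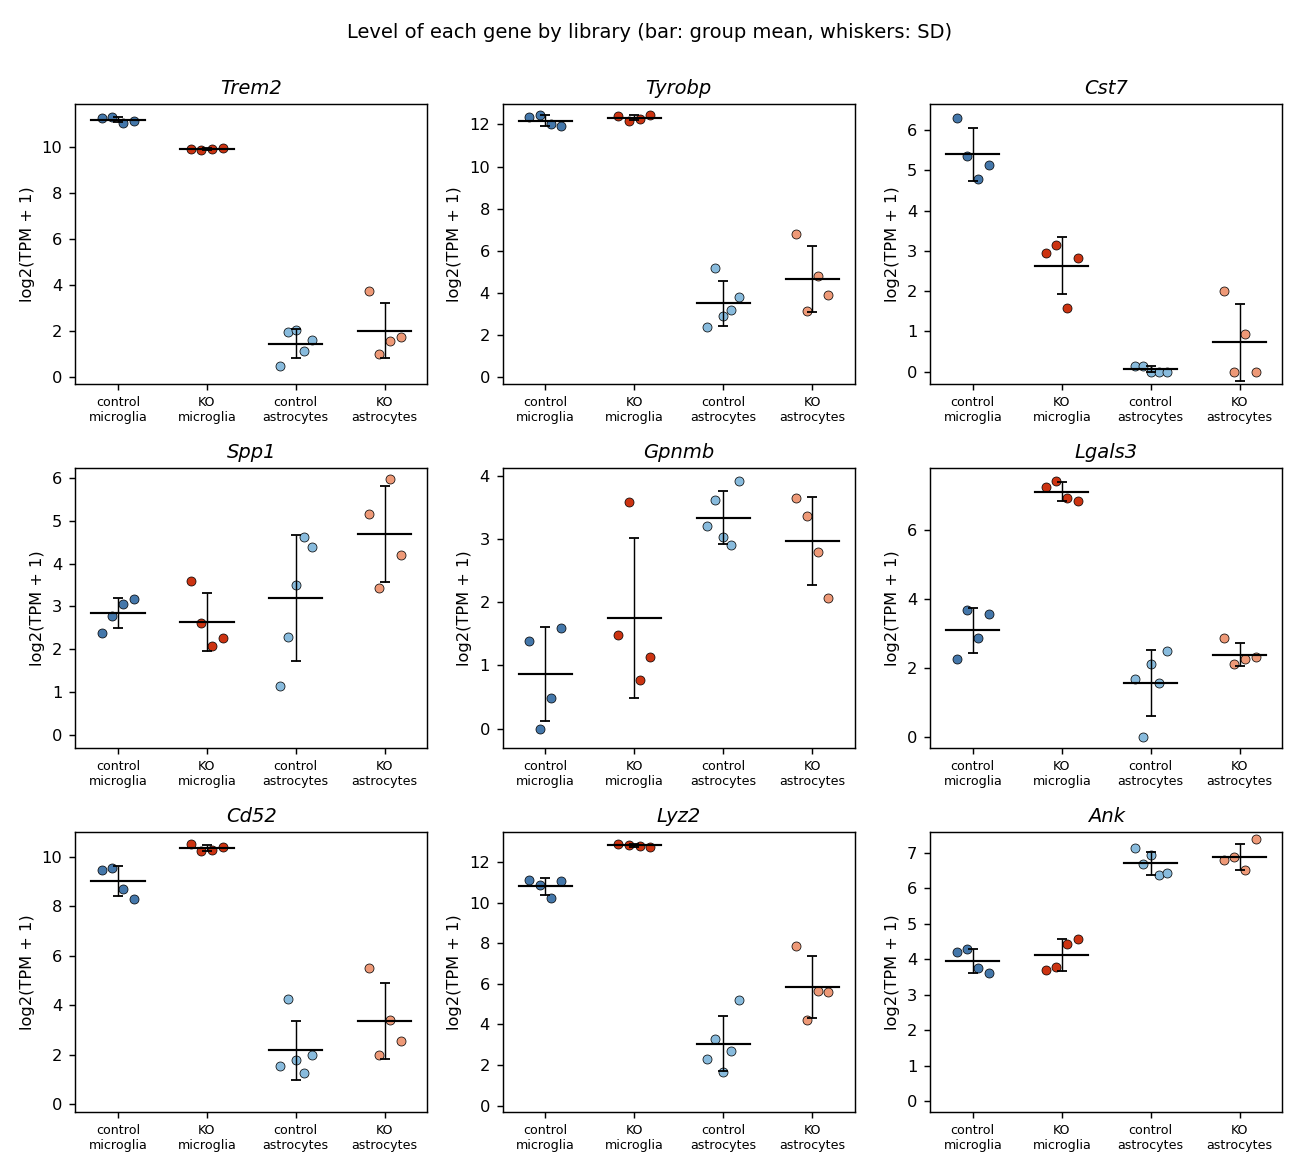
Level of each gene in every grouped library, as log2(TPM + 1), by cell type and genotype; points are libraries, bars are group means and whiskers the SD on this scale. Trem2 and Cst7 are lower and Lgals3, Cd52 and Lyz2 higher in the 4 KO microglial libraries than in all 4 control ones, and Ank and Gpnmb are higher in every control astrocyte library than in any control microglial one.

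Trem2 lies on the plus strand of chromosome 17 (48346401 to 48354147, GENCODE M21, GRCm38). Its level was 2459, 2506, 2105 and 2252 TPM in control microglia of mice 1, 2, 4 and 5, and 953, 916, 954 and 978 TPM in KO mice 1 to 4. Every KO value was less than every control value, and the KO values were close together. The mean fell from 2330 ± 187 to 950.4 ± 25.8 TPM (SD, n = 4 each), 2.45-fold lower, with a log2 difference of -1.29 (SE 0.0769, limma adjusted p = 2.2e-06). Among all genes ordered by mean TPM, Trem2 went from rank 49 to rank 154, so that it was still an abundant transcript of KO microglia.

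Tyrobp, the adaptor that carries the TREM2 signal, lies on the plus strand of chromosome 7 (30413760 to 30417585). It was at 5308, 5504, 4149.7 and 3854 TPM in control microglia and at 5483, 4618, 4913 and 5522 TPM in KO microglia. The groups overlapped, with control mice 1 and 2 among the KO values and control mice 4 and 5 under all of them. The means were 4704 ± 824 and 5134 ± 442 TPM (SD, n = 4 each), and the log2 difference of 0.14 had a 95% interval from -0.15 to 0.43 (limma adjusted p = 0.476). Against control mice 1 and 2 it was -0.078 (adjusted p = 0.606) and against control mice 4 and 5 it was 0.36 (adjusted p = 0.0333), so its sign depended on which controls were used.

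Trem2 RNA thus fell relative to Tyrobp RNA, which a ratio within each library shows whatever the scaling of that library. As the Tyrobp difference did not pass, the ratio mostly restates the fall of Trem2. Tyrobp had 2.16, 2.20, 1.97 and 1.71 times the TPM of Trem2 in control microglia of mice 1, 2, 4 and 5. In KO microglia of mice 1 to 4 it had 5.75, 5.04, 5.15 and 5.64 times as much. The groups did not overlap, with means of 2.01 ± 0.222 and 5.40 ± 0.353 (SD, n = 4 each). The log2 ratio differed by 1.43, with p = 0.0286 in a permutation test (exact, two-sided), the smallest p possible with 70 assignments. It differed by 1.31 against control mice 1 and 2 and by 1.55 against mice 4 and 5, where no exact permutation p under 0.133 is possible.

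**Figure D2:**
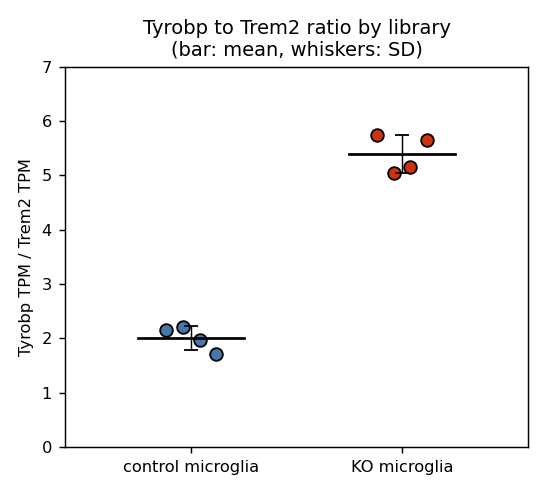
Ratio of Tyrobp TPM to Trem2 TPM in each microglial library (vertical axis, no unit) for 4 control and 4 KO mice; points are libraries, bars are means and whiskers the SD. Control values lie between 1.71 and 2.20 and KO values between 5.04 and 5.75.

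In KO microglia more genes of the TREM2 and TYROBP signalling list were lower than higher. The list is not limited to activating genes, and signalling itself was not measured. Of 18 genes tested 1 rose, 7 fell and 10 did not pass, with a median log2 difference of -0.25 against 0.0040 over all genes. For this and every other list compared between KO and control microglia below, the shares over all 13054 genes tested were 14.2% higher and 14.2% lower. Plcg2, the phospholipase that TREM2 signalling activates, fell from 149.5 ± 25.6 to 45.2 ± 5.56 TPM (SD, n = 4 each; log2 difference -1.70, limma adjusted p = 1.9e-05). Lat2, a membrane scaffold of immune receptor signalling, fell by 1.73 and Pik3r1, the regulatory subunit of phosphoinositide 3-kinase, by 1.2 on the log2 scale. Vav3, a guanine nucleotide exchange factor, was at 0.300 ± 0.245 TPM in control and 6.08 ± 1.36 TPM in KO microglia (SD, n = 4 each). At that control level it entered the test only through KO microglia, so its call, the 1 that rose, is not read as a result.

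Genes for shedding and ligands of TREM2 moved both ways, with 2 of 7 tested higher, 3 lower and 2 not past the threshold. Apoe, whose lipoprotein particles bind TREM2, rose from 1335 ± 394 to 8951 ± 948 TPM (SD, n = 4 each; log2 difference 2.79, limma adjusted p = 6.4e-06). Anxa5, which binds the phosphatidylserine of dying cells, rose by 2.78 on the log2 scale. The sheddase genes Adam10 and Adam17 fell by 1.49 and 0.95. Of 16 genes at the Trem locus or for other receptors that use TYROBP, 14 were in the files and 6 were tested, of which 2 rose, 3 fell and 1 did not pass. Pilrb1 and Pilrb2, close paralogs for activating receptors, rose by 3.33 and 3.87 on the log2 scale, while Siglech and Clec5a fell by 1.63 and 1.34. How reads shared by paralogs such as Pilrb1 and Pilrb2 were counted is not given in the sources used here.

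Cst7 encodes cystatin F, an inhibitor of lysosomal cysteine proteases such as cathepsin C, and lies on the plus strand of chromosome 2 (150570415 to 150578944). It was at 78.2, 40.2, 26.4 and 34.0 TPM in control microglia and at 6.7, 7.9, 2.0 and 6.1 TPM in KO microglia. No KO value reached the lowest control value, and control mouse 1 was well above the other controls. The mean fell from 44.7 ± 23.0 to 5.67 ± 2.56 TPM (SD, n = 4 each), 7.88-fold lower, with a log2 difference of -2.77 (SE 0.401, limma adjusted p = 6.9e-04). Among other cystatins and their protease targets 3 of 4 tested genes rose and 1 fell. Cst3, for the abundant secreted cystatin C, fell from 33980 ± 1074 to 11450 ± 1010 TPM (SD, n = 4 each), whereas Ctsc, the gene of cathepsin C, rose by 1.56 on the log2 scale. Cstb and Ctsh, for an intracellular cystatin and a lysosomal protease, rose by 0.81 and 0.53.

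Lgals3 encodes galectin-3, a lectin that binds damaged lysosomes and has been reported to bind TREM2, and lies on the plus strand of chromosome 14 (47367751 to 47386160). It was at 3.8, 11.9, 6.3 and 10.8 TPM in control microglia and at 151.0, 169.3, 121.7 and 113.1 TPM in KO microglia. The lowest KO value was far above the highest control value. The mean rose from 8.20 ± 3.8 to 138.8 ± 26.0 TPM (SD, n = 4 each), 16.9-fold, with a log2 difference of 4.01 (SE 0.300, limma adjusted p = 9.3e-06). Of 6 other galectins and partners tested 2 rose, 1 fell and 3 did not pass. Lgals1, for galectin-1, rose from 45.0 ± 13.3 to 273.2 ± 26.7 TPM (SD, n = 4 each) and Lgals3bp, for a galectin-binding glycoprotein, rose by 1.55 on the log2 scale, while Lgals9 fell by 0.72.

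Lyz2 encodes lysozyme of macrophages and granulocytes, which cuts bacterial cell walls, and lies on the minus strand of chromosome 10 (117277331 to 117282321). It was at 2245, 1865, 1187 and 2129 TPM in control microglia and at 7627, 7315, 7176 and 6853 TPM in KO microglia. The KO values were close together and all above the controls, among which mouse 4 was lowest. The mean rose from 1856 ± 474 to 7243 ± 321 TPM (SD, n = 4 each), 3.90-fold, with a log2 difference of 2.00 (SE 0.179, limma adjusted p = 2.9e-05), and Lyz2 went from rank 62 to rank 10 among all genes.

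Its paralog Lyz1, next to it on chromosome 10, was at 55.9, 42.3, 35.9 and 53.5 TPM in controls and at 196.1, 196.0, 187.4 and 180.4 TPM in KO microglia, 4.05-fold higher in the mean. The transcripts of both genes were 95.81% identical over 1264 aligned bases, and 121 of the 1256 stretches of 61 bases in Lyz2, the read length, also occurred in Lyz1. Lyz1 amounted to between 2.27% and 3.02% of Lyz2 in control libraries and between 2.57% and 2.68% in KO libraries. Whether the Lyz1 values come from Lyz1 or from shared Lyz2 reads was not tested.

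Cd52 encodes a small glycosylated surface protein of lymphocytes and myeloid cells and lies on the minus strand of chromosome 4 (134082448 to 134095082). It was at 698, 754, 418 and 312 TPM in control microglia and at 1449, 1183, 1231 and 1347 TPM in KO microglia. All KO values exceeded the controls, and control mice 1 and 2 were above mice 4 and 5. The mean rose from 545.5 ± 214 to 1303 ± 120 TPM (SD, n = 4 each), 2.39-fold, with a log2 difference of 1.34 (SE 0.256, limma adjusted p = 0.00347). The difference was 0.84 against control mice 1 and 2 (adjusted p = 0.00109) and 1.84 against mice 4 and 5 (adjusted p = 6.1e-05). With 1 spread estimated over all 4 groups the call was lost (adjusted p = 0.178).

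Spp1, Gpnmb and Ank were minor transcripts of both kinds of microglia. Spp1 encodes osteopontin, a secreted integrin and CD44 ligand, on the plus strand of chromosome 5 (104435118 to 104441050). It was at 4.2, 5.9, 7.3 and 8.0 TPM in controls and at 11, 5.1, 3.2 and 3.8 TPM in KO microglia. The groups overlapped, and KO mouse 1 was highest of all. The log2 difference of -0.22 had a 95% interval from -0.96 to 0.53 (limma adjusted p = 0.688).

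Gpnmb encodes a transmembrane glycoprotein of lysosomes and the cell surface, on the plus strand of chromosome 6 (49036546 to 49070929). It was at 1.6, 0.0, 0.4 and 2.0 TPM in controls and at 1.8, 11, 0.7 and 1.2 TPM in KO microglia. KO mouse 2 stood apart, and the other KO values lay within the control range. The log2 difference of 0.88 had a 95% interval from -0.48 to 2.24 (limma adjusted p = 0.329), and without KO mouse 2 it was 0.27 (adjusted p = 0.698).

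Ank encodes a membrane protein that exports ATP and pyrophosphate, on the plus strand of chromosome 15 (27466677 to 27594909). It was at 17.3, 18.7, 12.4 and 11.1 TPM in controls and at 12, 12.6, 20.5 and 22.9 TPM in KO microglia, and control mouse 5 alone lay outside the KO range. The log2 difference of 0.16 had a 95% interval from -0.40 to 0.72 (limma adjusted p = 0.696). The intervals of Spp1, Gpnmb and Ank hold changes in either direction.

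**Figure D3:**
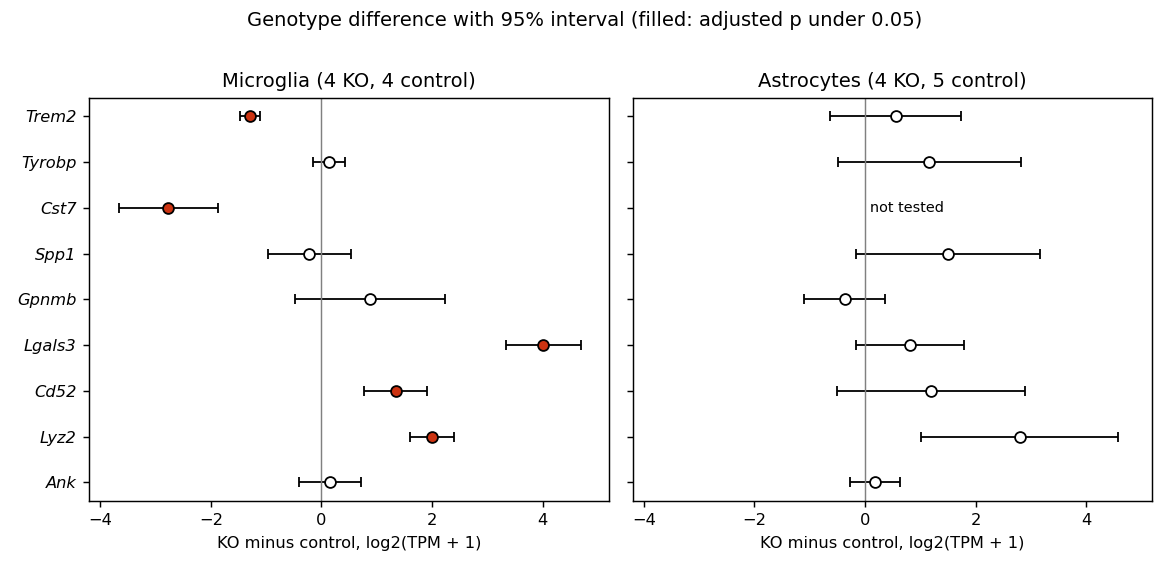
Difference between KO and control for each gene in microglia (left) and astrocytes (right), in log2(TPM + 1), with 95% intervals from limma; filled points have an adjusted p under 0.05. In microglia the differences run from -2.77 for Cst7 to 4.01 for Lgals3 and 5 points are filled; in astrocytes no point is filled, the intervals are wider and Cst7 was not tested.

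Genes around these members were taken from lists of their partners. Of 9 receptors and partners of osteopontin and GPNMB tested, 4 rose, 3 fell and 2 did not pass. Sdc4, a cell surface proteoglycan, rose from 65.2 ± 8.01 to 934.2 ± 68.8 TPM (SD, n = 4 each; log2 difference 3.82, limma adjusted p = 3.3e-08), Itga4 by 3.91 and Cd44 by 1.57 on the log2 scale, while the integrin gene Itgav fell by 1.81. Of the 4 MITF and TFE transcription factors, which drive Gpnmb and lysosomal genes, 3 did not pass. Tfec was at 0.475 ± 0.359 TPM in control and 3.15 ± 0.520 TPM in KO microglia (SD, n = 4 each). At that control level it entered the test only through KO microglia, so its call is not read as a result. Of 4 genes tested for pyrophosphate and phosphate handling none passed, and the differences with the smallest p were -0.38 for the phosphate exporter gene Xpr1 (limma adjusted p = 0.195) and 0.16 for Enpp1, which makes pyrophosphate (adjusted p = 0.505).

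The other genes of the disease-associated programme were also split in KO microglia. Of all genes tested there 14.2% rose and 14.2% fell. Of 5 stage 1 genes 4 rose and 1 fell, with a median log2 difference of 0.95. Ctsb, a lysosomal protease gene, rose by 1.03, the ferritin gene Fth1 by 0.95 and Apoe by 2.79, while Ctsd, for another lysosomal protease, fell from 15690 ± 890 to 3053 ± 203 TPM (SD, n = 4 each). Of 10 stage 2 genes 4 rose, 3 fell and 3 did not pass, with a median of -0.46. Lilrb4a, for an inhibitory receptor, rose from 12.2 ± 2.97 to 452.3 ± 77.3 TPM (SD, n = 4 each) and Axl, for a receptor of dying cells, rose by 3.85, whereas Cd9, a tetraspanin gene, fell from 3545 ± 293 to 818.3 ± 80.6 TPM (SD, n = 4 each) and Ctsl fell by 1.31. Of 17 further genes tested 11 rose, 4 fell and 2 did not pass, with a median of 1.26 against 0.0040 over all genes. The growth factor gene Igf1 rose by 2.95 and Gas7 by 2.83, while Serpine2, a protease inhibitor gene, fell from 1302 ± 75.7 to 31.3 ± 5.77 TPM (SD, n = 4 each). Genes assigned to either stage thus moved in both directions, as the 9 genes did.

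**Figure D4:**
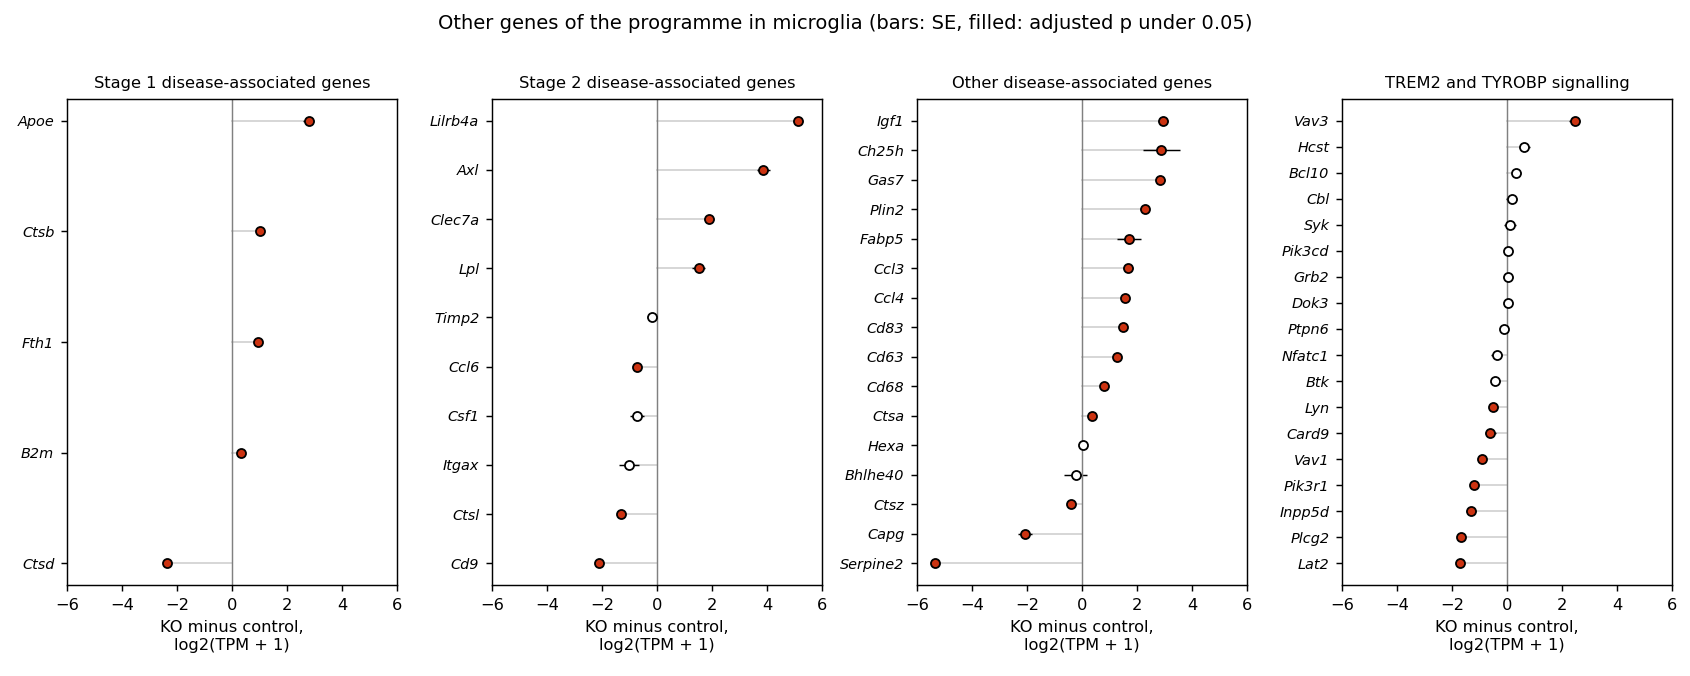
Difference between KO and control microglia in log2(TPM + 1) for the tested genes of 3 disease-associated lists and of the TREM2 and TYROBP signalling list (1 gene is not shown); bars are the SE and filled points have an adjusted p under 0.05. Lilrb4a, at 5.11, and Serpine2, at -5.35, are the extremes, and the signalling list has 7 filled points to the left of 0 and 1, Vav3, to the right. Vav3 entered the test only through KO microglia, so its call is not read as a result.

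Many markers of other macrophages also differed between the genotypes. The summed level of 12 markers of border-associated macrophages, which live in the meninges and around vessels, was 458.1 to 830.8 TPM in control microglia and 5750 to 6340 TPM in KO microglia. Of 11 tested 7 rose, 2 fell and 2 did not pass, where 14.2% of all genes tested rose and 14.2% fell. Mrc1, the mannose receptor gene, rose by 3.98, Pf4 by 4.14, Ms4a7 by 4.79 and Stab1 by 1.9 on the log2 scale. The log2 differences of the 2 that fell were -1.43 for Cd209f and -0.54 for Cbr2, and Cd163, at 0.58, and Lyve1, at -1.24, did not pass. Lyz2 is also abundant in such macrophages, and their part in the rise of Lyz2, Lgals3 and Cd52 was not tested. All 10 homeostatic microglial markers fell, with log2 differences of -3.96 for P2ry12, -4.38 for Olfml3 and -5.88 for Tmem119. Their sum was 44970 to 48220 TPM in controls and 9563 to 10470 TPM in KO microglia.

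Markers of blood cells were low in both groups. The 8 monocyte markers summed to 4.7 to 10.3 TPM in control and 0.9 to 4.8 TPM in KO microglia, with Chil3 listed at 0 in all 8 libraries, and the 1 tested, Ccr2, fell by 1.28. The 9 neutrophil markers summed to 0.1 to 40.4 TPM in controls and 0.1 to 1.5 TPM in KO mice, with Ly6g at 0 throughout, and the 7 lymphocyte markers to 0.1 to 12.4 and 1.5 to 5.1 TPM. The summed level of 11 immediate-early and dissociation genes was 690.8 to 1188 TPM in controls and 1470 to 1858 TPM in KO microglia. Of 10 tested 6 rose, 1 fell and 3 did not pass, where 14.2% of all genes tested rose and 14.2% fell. Dusp1 was up by 3.09, Fos by 4.28, Ier2 by 2.45 and Egr1 by 2.56. The part of these genes in the differences of the 9 genes was not tested.

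Microglia were compared with astrocytes of the same genotype to see which sort held each gene. In controls 6 of the 9 genes were higher in microglia, where 26.2% of 15332 genes were, and 2 were lower, where 39.5% were. Cst7 among the 6 and Gpnmb among the 2 entered the test only through the sort where they were high, so these counts are not read as results. The median difference of all genes was -0.19 as deposited and 0.076 after quantile normalization, a shift small beside the differences that passed for these genes. Trem2 had a mean of 1.92 ± 1.14 TPM (SD, n = 5) in control astrocytes, against 2330 ± 187 TPM in the microglia (SD, n = 4). The log2 difference was 9.74 (limma adjusted p = 6.2e-10). Tyrobp was higher by 8.67, Lyz2 by 7.78, Cd52 by 6.83 and Cst7, which entered the test only through microglia, by 5.34, none with overlap. Lgals3 was higher by 1.52 (adjusted p = 0.0189), with overlap, and the call ended with a pseudocount of 0.1 TPM (2.32, adjusted p = 0.0745), without control microglia of mouse 2 (adjusted p = 0.0542) or of mouse 5 (adjusted p = 0.054).

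Ank and Gpnmb ran the other way. Ank was at 138.5, 101.6, 121.7, 82.4 and 84.4 TPM in control astrocytes of mice 1 to 5 and at 14.9 ± 3.69 TPM (SD, n = 4) in control microglia. Every astrocyte library was above every microglial one, and the log2 difference was -2.75 (limma adjusted p = 6.8e-07). Gpnmb was at 8.2, 11.2, 7.2, 6.5 and 14.1 TPM in control astrocytes, again all above control microglia, with a log2 difference of -2.47. At 0.0 to 2.0 TPM in control microglia, Gpnmb entered this test only through astrocytes, so its call is not read as a result. Control astrocyte libraries also held 3408 to 5015 TPM of 7 oligodendrocyte markers, against 61.6 to 129.6 TPM in control microglia, and the part of that RNA in the levels of Ank and Gpnmb was not tested.

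In KO mice 6 genes were higher in microglia, where 26.4% of 15365 genes were, and 2 were lower, where 42.9% were. The differences were 7.90 for Trem2, 7.65 for Tyrobp, 6.98 for Cd52, 6.99 for Lyz2, 4.71 for Lgals3 and 1.9 for Cst7 on the log2 scale. Cst7, at 3.0, 0.0, 0.9 and 0.0 TPM in KO astrocytes, entered this test only through microglia, so its call among the 6 is not read as a result. Its values also overlapped between the sorts. Ank was lower in KO microglia by 2.77 and Spp1 by 2.06 (limma adjusted p = 0.00664), with overlap for Spp1. Gpnmb was at -1.22 (adjusted p = 0.0937). With each mouse as a block, since both sorts came from the same animals, it passed (adjusted p = 0.0356), as it did without KO microglia of mouse 2 (-1.84, adjusted p = 0.00255). Gpnmb entered this test only through astrocytes, so these calls are not read as results.

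The order of levels followed from this. In control microglia the group means ran Tyrobp, Trem2, Lyz2, Cd52, Cst7, Ank, Lgals3, Spp1 and Gpnmb, from 4704 to 1.00 TPM. The ranges of Trem2, at 2105 to 2506 TPM, and Lyz2, at 1187 to 2245 TPM, overlapped, as did those of Lgals3 and Spp1 and of Lgals3 and Ank. In KO microglia the order was Lyz2, Tyrobp, Cd52, Trem2, Lgals3, Ank, Spp1, Cst7 and Gpnmb, from 7243 to 3.67 TPM, and the ranges of the last 3 overlapped. Lyz2 had passed Tyrobp, and Cd52 had passed Trem2, with no overlap between the libraries of each pair in KO mice. In KO astrocytes Ank, at 120.5 ± 32.3 TPM, and Lyz2, at 87.3 ± 99.6 TPM (SD, n = 4 each), were highest and overlapped.

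The genotypes were also compared in the astrocyte sort. None of the 8 genes tested passed, where 1 of 15231 genes, 0.00657%, did. At an unadjusted p under 0.05 limma gave 1 of the 8, Lyz2, where it gave 12.7% of all genes tested. Lyz2 was at 4.0, 8.8, 2.2, 5.4 and 36.3 TPM in control astrocytes and at 235.1, 17.6, 48.8 and 47.7 TPM in KO astrocytes. Control mouse 5 lay among the KO values, and KO mouse 1 was far above the rest. The means were 11.3 ± 14.2 (SD, n = 5) and 87.3 ± 99.6 TPM (SD, n = 4). The log2 difference was 2.80 (SE 0.802, limma adjusted p = 0.291), with adjusted p from 0.0629 to 0.664 over the alternatives. Lyz1 was at 0.1 to 3.0 TPM in control and 3.9 to 7.2 TPM in KO astrocytes, without overlap.

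Trem2 and Tyrobp were at 0.4, 2.9, 3.1, 1.2 and 2.0 TPM and at 4.3, 36.0, 6.5, 8.3 and 13.2 TPM in control astrocytes. In KO astrocytes Trem2 was at 12.3, 1.0, 1.9 and 2.3 TPM and Tyrobp at 112.0, 8.0, 27.0 and 14.0 TPM. KO mouse 1 was highest for both, and the other KO libraries lay in the control range. The log2 differences were 0.56 (limma adjusted p = 0.681) and 1.16 (adjusted p = 0.516), and without KO mice 1 and 3 they were -0.080 and 0.025. Cd52, at 1.9, 18.3, 2.5, 1.4 and 3.0 TPM in control and 43.8, 3.0, 9.7 and 4.9 TPM in KO astrocytes, had the same highest KO library. Its log2 difference was 1.19 (limma adjusted p = 0.518), 0.46 against control mice 1 and 2 (adjusted p = 0.856) and 1.68 against mice 3, 4 and 5 (adjusted p = 0.686).

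RNA of macrophages also varied between the astrocyte libraries, with the same KO mouse highest. The 12 macrophage markers summed to 29.5, 100.2, 71.3, 57.9 and 96.5 TPM in control astrocytes of mice 1 to 5. In KO astrocytes of mice 1 to 4 they summed to 705.4, 55.9, 166.6 and 123.3 TPM. The library of KO mouse 1 had 1.29% of the mean Trem2 level of KO microglia, 2.18% for Tyrobp, 3.25% for Lyz2 and 3.36% for Cd52, beside 1.57% for Csf1r and 1.56% for C1qa, of a growth factor receptor and a complement subunit of macrophages. The other KO libraries had 0.105% to 0.745% for these 4 genes. How much of the astrocyte values comes from macrophage RNA was not tested.

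**Figure D5:**
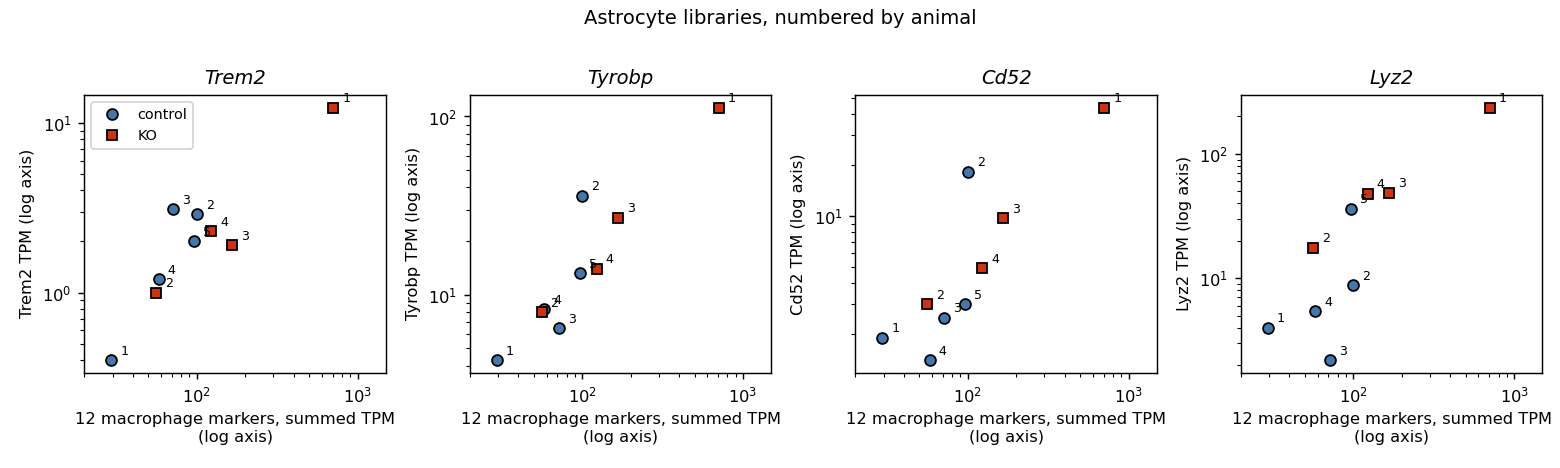
Level of Trem2, Tyrobp, Cd52 and Lyz2 in the 9 astrocyte libraries (vertical axes, TPM, log scale) against the summed TPM of 12 macrophage markers in the same library (horizontal axes, log scale), numbered by mouse. KO mouse 1, at 705.4 TPM of the markers, has the highest value in all 4 panels, and control mouse 1, at 29.5 TPM, has the lowest Trem2 and Tyrobp.

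Spp1 was at 1.2, 3.9, 10.3, 23.8 and 20 TPM in control astrocytes and at 34.8, 9.8, 62.1 and 17.3 TPM in KO astrocytes. KO mice 1 and 3 were highest, control mice 1 and 2 lowest, and the groups overlapped, with a log2 difference of 1.5 (limma adjusted p = 0.423). It was 2.98 against control mice 1 and 2 (adjusted p = 0.152) and 0.52 against mice 3, 4 and 5 (adjusted p = 0.825). Beside it, 8 markers of mural cells and fibroblasts summed to 439.5, 198.5, 1057, 3200 and 2897 TPM in control and 6349, 750.2, 9615 and 3631 TPM in KO astrocytes. KO mouse 3 was highest and control mice 1 and 2 were lowest for both, and the part of these cells in the Spp1 values was not tested. In control mice 3, 4 and 5 Spp1 was lower in microglia than in astrocytes by 1.06 (adjusted p = 0.0383), but in mice 1 and 2 the difference was 0.87 in the other direction (adjusted p = 0.175).

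The remaining genes differed little between the astrocyte groups relative to their spread. Ank was at 110.5, 116.1, 89.5 and 165.8 TPM in KO astrocytes, with a log2 difference of 0.18 (95% interval -0.28 to 0.64, limma adjusted p = 0.731). Gpnmb was at 11.5, 9.3, 5.9 and 3.2 TPM in KO astrocytes, with a difference of -0.37 (95% interval -1.10 to 0.37). Lgals3 was at 2.2, 0.0, 3.4, 2.0 and 4.6 TPM in control and 6.3, 3.4, 3.8 and 4.0 TPM in KO astrocytes, with a difference of 0.82 (95% interval -0.16 to 1.80). Against control mice 1 and 2 it was 1.56 (limma adjusted p = 0.21) and against mice 3, 4 and 5 it was 0.33 (adjusted p = 0.774). Cst7 was listed at 0.1, 0.1, 0.0, 0.0 and 0.0 TPM in controls and at 3.0, 0.0, 0.9 and 0.0 TPM in KO astrocytes, too low for the test. In the library of KO mouse 1 Cst7 stood at 52.9% of its mean level in KO microglia, unlike the shares of Trem2 and Tyrobp in that library. None of the tested genes of the partner and programme lists passed in astrocytes either.

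Whether the genotype difference itself differed between the cell types was tested over all 17 libraries. Of the 9 genes 1 had a more positive difference in microglia, where 6.63% of 17087 genes did, and 2 a more negative one, where 8.87% did. These 2 were Trem2 and Cst7, so the count is not read as a result, since Cst7 has no valid test here. For Lgals3 the difference in microglia exceeded that in astrocytes by 3.19 (SE 0.580, limma adjusted p = 9.99e-04), although not with a pseudocount of 0.1 TPM (2.66, adjusted p = 0.157). Cst7 entered this fit only through microglia and was too low to be tested in astrocytes, so that its value of -3.44 restates the microglial fall and is given with no test. For Trem2 it was at -1.85 (SE 0.600, adjusted p = 0.0470), and this call was lost in 20 of 29 alternatives, among them without KO astrocytes of mice 1 and 3 (-1.21, adjusted p = 0.0764). The value for Lyz2 was -0.79 with a 95% interval from -2.77 to 1.18 (adjusted p = 0.644), so that a difference between the cell types was not detectable for it.

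Genes with the most similar pattern were sought by Pearson's r of log2(TPM + 1), as a description over libraries that share cell types, genotypes and animals. Over all 17 libraries, among 10167 genes, those nearest to Trem2 were H2-DMa, Ctss and Csf1r (r = 0.998 each), of class II antigen loading, a lysosomal protease and the receptor for macrophage growth factors. Nearest to Tyrobp were Aif1 (0.998), Bcl2a1d (0.997) and C1qa (0.997), and nearest to Cd52 were Bcl2a1d (0.992), Cd48 (0.991) and Tyrobp (0.989). Lyz2 was nearest to Hprt (0.987), Phf11d (0.986) and the class II gene H2-Ab1 (0.985), and Lgals3 to Stard8 (0.975), Snx8 (0.973) and Dok2 (0.971). Cst7 was nearest to Fam46c (0.967), Myadml2 (0.964) and Commd8 (0.964), which were also lower in KO than in control microglia in the mean. Spp1 was nearest to Des (0.928), the desmin gene of muscle and mural cells, Tmem45a (0.906) and Cysltr2 (0.905), each under 0.3 TPM in mean in both microglial groups and higher in astrocyte libraries. Ank was nearest to Dpyd (0.987), Kif1b (0.986) and Mlf2 (0.984), and Gpnmb to Zwint (0.942), Sdhd (0.892) and Ndrg4 (0.883), all with more RNA in the astrocyte than in the microglial sort.

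Within the 8 microglial libraries, among 8118 genes, the order changed. Trem2 was nearest to Cxxc5 and Rtn4rl1 (0.999 each) and Ifitm10 (0.998), Cst7 to Capg (0.988), Vrk1 (0.986) and Ldah (0.983), and Lyz2 to Clec12a (0.999), Hs3st1 (0.996) and its paralog Lyz1 (0.994). Lgals3 was nearest to Fam26f, Tnfsf9 and Stard8 (0.993 each), and Cd52 to Eif4ebp1 (0.992), Atpif1 (0.991) and Rpl35 (0.988). Tyrobp was nearest to Atp5h (0.979), Lsm5 (0.969) and Trappc1 (0.967). For Ank (Hnrnpab, 0.961; Smarca5, 0.944; Esyt1, 0.940), Gpnmb (Tmem159, 0.891; Ywhaq, 0.887; Flad1, 0.879) and Spp1 (Mrps15, 0.885; Kiz, 0.883; Extl2, 0.798) the nearest genes differed little between genotypes in their means.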

How the data were processed

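The authors deposited TPM values with 1 decimal, 1 file per library of paired 61-base reads, so that values under 0.05 TPM are listed as 0. Tools in the submitters' processing notes are STAR 2.6.1e, featureCounts 1.6.2, cutadapt 1.9.1 and Trim Galore 0.4.2, with mm10. Annotation, strand setting and treatment of shared reads are not given in the sources used here. TPM keeps no depth, so no counting interval is given.

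Of 18 libraries 17 were grouped by cell type and genotype. Log2(TPM + 1) of genes reaching 1 TPM in 4 or more libraries was tested with limma 3.58.1 in R 4.3.3 (variance trend, two-sided, Benjamini-Hochberg over all genes tested, threshold 0.05), tested on simulated data. Ratios were tested with an exact permutation test. Python 3.11.15 with pandas 2.3.3, numpy 2.4.6, scipy 1.17.1 and matplotlib 3.10.9 made tables and figures.

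The members, lists and alternatives were chosen with earlier results of these data known. The text names all members, for each list up to 4 passing genes, taken by smallest p (2 where none passed), and the 3 most similar genes of each member among those averaging 5 TPM or more in a group, without unnamed predicted genes; values of some genes these rules pick are not reported here. Tgfb1 was given as the targeted gene. Xist, Ddx3y, Csf1r and C1qa as shares, the markers given at 0 and the border-associated markers that fell or did not pass were picked after their values were seen. Mouse numbers in the labels pair microglia and astrocytes of 1 animal; deviations of such pairs from their group means correlated at 0.03 to 0.189. P-values measure the spread between mice. Promoters came from RefSeq (GRCm38.p6), positions from GENCODE M21.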

Additional observations from a re-analysis of the deposited data

Results flagged for a closer look

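Of 36 sets of values (9 genes in 4 groups) 7 held a library far from the others of its group by Dixon's test. Its rate by chance, about 1 of 20 sets, holds for independent sets of normally distributed values. The sets here share libraries, so the 7 are not read against that rate. Of the 7 flagged values 3 were in the astrocyte library of KO mouse 1, which had the highest sum of macrophage markers. They were Trem2 (12.3 TPM), Cd52 (43.8 TPM) and Lyz2 (235.1 TPM). In control astrocytes mouse 2 stood apart for Tyrobp (36.0 TPM) and Cd52 (18.3 TPM), and mouse 5 for Lyz2 (36.3 TPM). In KO microglia mouse 2 stood apart for Gpnmb (11 TPM).

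By the limma contrast over both cell types the genotype difference in microglia was above that in astrocytes for Lgals3 (log2 value 3.19) and below it for Trem2 (-1.85), a call lost in 20 of 29 alternatives. Cst7 (-3.44) passed the threshold too, but was too low to be tested in astrocytes, so that its value restates the microglial fall. In the library left in no group Trem2 was at 2554.1 TPM and Tyrobp at 5725.6 TPM, above every control library of either cell type.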

How the results depend on the processing

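The calls of Trem2, Cst7, Lgals3 and Lyz2 in KO against control microglia held in all 20 alternatives, and that of Cd52 in 19. Genes called fell there from 3711 to 2079 with the mouse number as a replicate block, under which Spp1 was at 0.080 and Ank at -0.064. Between genotypes mice share only a number (correlations of deviations -0.0756 to 0.176). Between cell types the block changed no call of a member other than that of Gpnmb in KO mice. With quantile normalization Tyrobp was at -0.053. In microglia Trem2 was at -1.38 against control mice 1 and 2 and at -1.195 against control mice 4 and 5. Cst7 was at -3.21 and -2.325, Lgals3 at 4.13 and 3.89 and Lyz2 at 1.82 and 2.19 in these fits. Against control mice 1 and 2 Tyrobp was at -0.078, Spp1 at 0.049 and Ank at -0.13 in microglia, and Ank at -0.014 in astrocytes. In astrocytes 1 gene was called, against 3 with no filter, 88 with 1 fit over all groups, 0 with the replicate block, 0 against control mice 1 and 2, 3 against mice 3, 4 and 5, 0 without KO mice 1 and 3, and 0 to 5 with each library left out. Trem2 there was between -0.022 (without KO mouse 1) and 0.89 with each library left out, and at -0.080 without KO mice 1 and 3.

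Between control microglia and control astrocytes 10078 genes and 8 members were called, against 3339 genes and 4 members in mice 1 and 2 and 6063 genes in mice 3, 4 and 5, with fewer libraries in the fit. Cst7 and Gpnmb were among the 8, each entering the fit through a single sort. Spp1 was between -0.86 and 0.017 (without astrocytes of mouse 4) with each library left out, and at 0.87 in mice 1 and 2. In the contrast of cell types 3 members were called, but 1, Cst7, with a pseudocount of 0.1 TPM. Cst7 entered that fit only through microglia. Ank turned to 0.078 with median-of-ratios scaling, 0.047 with quantile normalization, 0.095 with array weights and 0.14 against control mice 3, 4 and 5, and was between -0.17 and 0.14 with each library left out. Cd52 turned to -0.073 with a pseudocount of 0.1 TPM and was between -0.37 and 0.86 with each library left out. Without KO astrocytes of mice 1 and 3 Tyrobp was at 0.11 and Lyz2 at 0.13. The log2 ratio of Tyrobp to Trem2 was 1.35 to 1.47 with each library left out (exact permutation p = 0.0571), 1.31 and 1.55 against control mice 1 and 2 or 4 and 5 (p = 0.133) and 1.38 with the replicate block (p = 0.25), each the smallest p these sizes allow. The cause of these shifts was not tested. TPM keeps no depth, so the precision of genes near 1 TPM, such as Gpnmb, rests on the spread between mice alone.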

Other observations

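The library left in no group has a title and cell type label of control astrocytes of mouse 3, a title that another library shares, but a sample code with the ending used for microglial libraries. Beside Trem2 at 2554.1 and Tyrobp at 5725.6 TPM it held 1746 TPM of Lyz2, 679 TPM of Cd52, 50.9 TPM of Cst7, 12.8 TPM of Ank, 9.6 TPM of Lgals3, 5.4 TPM of Spp1 and 0.2 TPM of Gpnmb. Apart from Trem2 and Tyrobp, each of these values lay within the range of the 4 control microglial libraries.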
